A study of Homo sapiens with 24 samples.

Results

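The regions described here are stretches of chromatin that carried trimethylated lysine 27 of histone H3 (H3K27me3) in UMUC1 cells given wild-type UTX and in cells given a mutant UTX, but not in cells given an empty vector. A member is an H3K27me3 region of the wild-type line at least 1000 bp wide that shares at least 1 bp with an H3K27me3 region of the mutant line and none with one of the empty-vector line. Of 199901 regions in the wild-type line, 46543 were at least 1000 bp wide, and 2881 of those (6.19%, 95% Wilson interval 5.97 to 6.41%) met the rule. They are called new regions below, and they covered 3.95 Mb.

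UMUC1 is an established human bladder cancer cell line. All 3 lines were stable and carried a puromycin-selectable pSIN construct: an empty vector (EV), UTX with its wild-type sequence (WT) or UTX with the changes H1146A and E1148A (HEAA). Both changes alter metal-binding residues of the catalytic site and are known to abolish demethylase activity. Chromatin was taken 3 days after plating and analysed by ChIP-seq, in which antibody-bound DNA is sequenced and enriched stretches are listed. Of 24 samples, 18 had a list of enriched regions, and the 6 inputs were not used here. H3K27me3, the enhancer mark H3K4me1, UTX and MLL4 had 1 list per line, so their differences have no replicate check. H3K27ac had 2 libraries per line. Whether each line is 1 clone or a pool is not stated in the sources used here.

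H3K27me3 is written by Polycomb repressive complex 2 and removed by UTX (KDM6A) and its relatives. It typically lies over silent developmental genes and broad gene-poor domains. H3K27ac occupies the same lysine at active promoters and enhancers, so a single histone tail cannot carry both marks. H3K4me1 is laid down at enhancers by MLL3 and MLL4, which work in complexes that contain UTX.

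The new regions were defined by the H3K27me3 lists, so every H3K27me3 value given here is a description without a test. The H3K27me3 list of EV covered 239 Mb, that of WT 169 Mb and that of HEAA 251 Mb, so the new regions came from the list that covered least. The depth of every sample is unknown, and lists lengthen with depth. An absent region means one below the caller's threshold, not absence of the mark. Among WT regions at least 1000 bp wide, 751 (1.61%) were shared with EV and absent from HEAA. The 6.19% shared with HEAA and absent from EV was the larger of these classes. For scale, among EV regions of that width, 7660 of 67755 (11.3%) were shared with HEAA and absent from WT.

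New regions were narrow, with modest enrichment. Their median width was 1231 bp (quartiles 1092 and 1476 bp, widest 8290 bp), against 1610 bp for the 42458 WT regions of at least 1000 bp that were present in both EV and HEAA, called kept regions below. Only 207 of them (7.19%) were wider than 2000 bp, against 34.1% of kept regions. The authors' fold enrichment over background had a median of 2.61 in WT (range 1.89 to 3.64), and that of kept regions a median of 2.79. Their −log10 q had a median of 1.67 against 2.06, and 26.2% reached 2 against 53.9% of kept regions. The HEAA regions they overlapped had a median fold of 2.43. HEAA H3K27me3 covered a median of 63.8% of a new region's bases, 434 (15.1%) were covered completely and 974 (33.8%) by less than 50%. The 10 members nearest the width limit, at 1000 to 1001 bp, had a median fold of 2.63 (2.40 to 2.92), and the 10 regions just below it, at 998 to 999 bp, had 2.67 (2.47 to 3.02). A further 30691 narrower WT regions met the other conditions.

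The highest-ranked members by fold in both lines lay on 7 chromosomes. At chr1:92263504-92266150 the fold was 3.38 in WT and 3.44 in HEAA. At chr2:241854155-241855619 it was 3.64 in WT and 3.22 in HEAA, and 16.4 kb away a second ranked member, chr2:241836380-241837737, had 3.05 and 3.41. At chr2:159077801-159079004 it was 3.24 and 3.30. The remaining ranked members by fold were chr13:114491696-114492982, chr10:133621776-133622949, chr7:71793908-71795175, chr10:134858902-134860022, chr11:4813424-4814740 and chr20:37738950-37740657. All 10 lay within 6.43 kb of EV H3K27me3, and 1 of them, chr2:241836380-241837737, had carried H3K27ac in an EV library.

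Chromosome 10 held more new regions than any other chromosome. It had 328 of them, 11.4% of the total (95% interval 10.3 to 12.6%), and 4.67% of all WT regions at least 1000 bp wide. Of its 2174 such regions, 15.1% (13.6 to 16.7%) were new. Chromosome 4 followed with 9.36% (7.87 to 11.1%), then chromosome 18 with 8.47%, chromosome 16 with 8.29% and chromosome 21 with 7.98%. The interval of chromosome 10 did not reach that of any other chromosome. At the other end, 2.69% were new on chromosome 15, 3.41% on chromosome 17 and 3.53% on chromosome 13. By number, chromosome 10 was followed by chromosome 2 with 296, chromosome 5 with 243 and chromosome 1 with 217. With a width limit of 500 bp, chromosome 2 held most of the new regions and chromosome 10 held 9.10%. These intervals cover counting error only and treat regions as independent, although neighbouring regions were related.

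**Figure D1:**
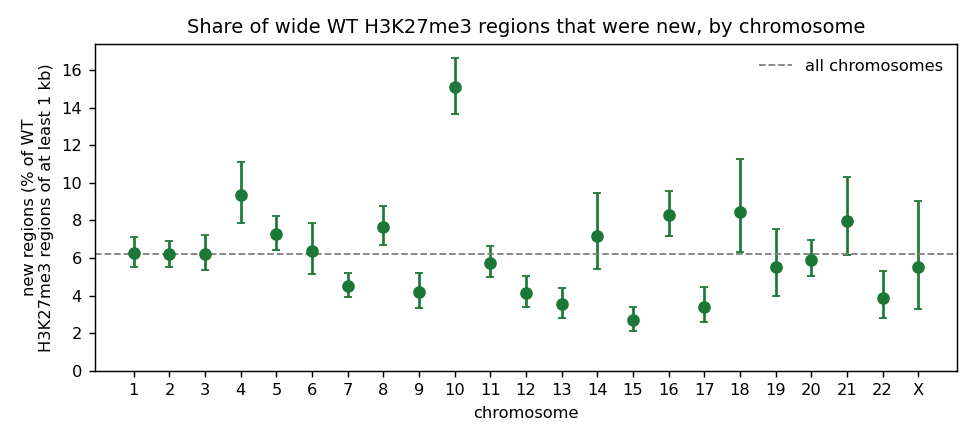
Percentage of WT H3K27me3 regions of at least 1000 bp that were new, for each chromosome, with 95% Wilson intervals for counting error. The dashed line is the share over all chromosomes, 6.19%, and chromosome 10 stands at 15.1%.

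Within chromosome 10 the new regions were denser at the far end of the long arm. From 120 Mb onward, a boundary chosen after the values were seen, 159 of 666 regions were new (23.9%, 20.8 to 27.3%), against 169 of 1508 (11.2%, 9.71 to 12.9%) up to 120 Mb. The area covered by all 3 marks also moved there, and by less over the rest of the chromosome. Divided by the same ratio over the rest of the genome, the ratio of covered bases to EV from 120 Mb onward was 2.43 in WT and 2.09 in HEAA for H3K27me3, and 1.57 and 1.61 for H3K4me1. For H3K27ac it was 1.30 and 1.32 in the first library, and 1.21 and 1.30 in the second. Relative to the rest of the genome, both the repressive and the activating marks were thus listed over more of this stretch in both UTX lines than in EV. Up to 120 Mb the same values in WT and HEAA were 1.20 and 1.37 for H3K27me3, and 1.13 and 1.11 for H3K4me1. For H3K27ac they were 1.10 and 1.09 in the first library, and 1.07 and 1.06 in the second. The shift was thus not confined to the far end. The part of this common shift in the count of new regions was not tested. Chromosome 16, also rich in new regions, had a relative ratio of 1.20 and 1.11 for H3K27me3, 0.961 and 0.999 for H3K4me1, and between 1.03 and 1.06 for H3K27ac in the 4 libraries. H3K27ac thus lay on the same side of 1 as H3K27me3 there, and H3K4me1 on the other. Chromosomes 4 and 18 had higher shares of new regions than chromosome 16. Their H3K27me3 ratios in WT and HEAA were 0.853 and 1.03 on chromosome 4, and 0.785 and 0.724 on chromosome 18. Chromosome 20 had 1.22 and 1.09 with 5.91% new. A high share of new regions thus did not always go with a high relative ratio of H3K27me3.

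New regions were clustered. Along the row of WT regions at least 1000 bp wide, 595 of 2880 new regions (20.7%, 19.2 to 22.2%) were followed directly by another new region, and 2285 of 43634 other regions (5.24%, 5.03 to 5.45%) were followed by one. Without chromosome 10 the share was 19.1%, against 5.75% new among all regions there. Another new region lay within 10 kb of 683 members (23.7%) and within 100 kb of 1770 (61.4%, 59.6 to 63.2%). Joined across gaps of up to 100 kb, they formed 1633 groups, of which 1111 were single regions. The 89 clusters of at least 5 members held 729 members (25.3%), and the 18 clusters of at least 10 held 282 (9.79%). No comparison share is given for these distances and clusters, so the regional density of WT regions was not separated from them.

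The 5 megabases richest in new regions were on chromosomes 10, 5 and 15. Chromosome 10 from 122 to 123 Mb held 31, and H3K27me3 regions covered 6.44% of its bases in EV against 21.9% in WT and 27.4% in HEAA. Chromosome 5 from 5 to 6 Mb held 30, with 11.9%, 27.4% and 32.0%. Chromosome 10 from 131 to 132 Mb held 26, with 8.72%, 28.7% and 32.6%. In each of these the mark covered more in HEAA than in WT, as it did over the whole lists (251 Mb against 169 Mb). Chromosome 10 from 124 to 125 Mb held 23 (13.9%, 25.1% and 30.6%), and chromosome 15 from 94 to 95 Mb held 21 (9.60%, 21.2% and 22.6%).

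The widest members showed the same concentration. The widest was chr10:131802294-131810583 at 8290 bp, 24.5 kb from EV H3K27me3 and 83.3% covered in HEAA. Of the 10 widest, 5 were on chromosome 10, 3 on chromosome 16, and 1 each on chromosomes 1 and 8. Those on chromosome 16 were chr16:66033121-66038759 (5639 bp), chr16:66143763-66148999 (5237 bp) and chr16:66104133-66108244 (4112 bp). The first of these carried H3K4me1 over 24.6% of its bases in EV and none in WT or HEAA. The one on chromosome 1, chr1:240816851-240821732 (4882 bp), had H3K4me1 over 14.0% of its bases in EV against 0.123% in WT and 2.75% in HEAA. None of the 10 overlapped H3K27ac in any of the 6 libraries.

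The 18 largest clusters fell into a larger group poor in H3K4me1 in EV and a smaller group that carried it. In 14 of the 18, H3K4me1 covered more bases in both WT and HEAA than in EV, and in 4 it covered less in both. Among windows of 200 kb over the genome that held H3K4me1, 63.7% covered more in both and 16.9% less in both. A cluster of the larger kind was chr5:4892095-5120798, with 27 members over 229 kb. There H3K27me3 covered 10.5% of bases in EV against 53.2% in WT and 59.4% in HEAA, while H3K4me1 covered 0.109%, 2.38% and 2.19%, and no library listed H3K27ac. The cluster chr10:122338069-122585707, with 23 members, was alike: H3K27me3 covered 12.5%, 53.7% and 59.4%, and H3K4me1 0.599%, 2.19% and 3.03%. In 10 of the 18 clusters neither EV library listed any H3K27ac, and 3 had none in any of the 6 libraries. Of the 15183 windows of 200 kb over the genome, 10771 held H3K27ac in at least 1 library. Windows with none in any library, as in the 3 clusters, were thus common too. No share of windows without H3K27ac in the EV libraries alone is given, so the count of 10 has no comparison. The 14 clusters of the larger kind thus had little of either activating mark listed in EV. H3K27me3 was listed over more of their bases in WT and HEAA, which the rule for members favours. How this came about was not tested.

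The 4 clusters in which H3K4me1 covered less lay on chromosomes 16, 1 and 15. At chr16:65950662-66258322, with 19 members over 308 kb, H3K27me3 covered 1.59% of bases in EV against 27.8% in WT and 42.1% in HEAA. H3K4me1 covered 19.8%, 10.1% and 9.63% of the same stretch. H3K27ac covered 13.1%, 4.59% and 3.57% in the first library of EV, WT and HEAA, and 4.48%, 0.497% and 0.248% in the second. In both UTX lines the repressive mark was thus listed over more of the cluster and both activating marks over less, within each library number. Across numbers the H3K27ac groups overlapped, since the first WT library was above the second EV library.

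The cluster chr1:240693826-240856833, with 15 members over 163 kb, moved the same way. H3K27me3 covered 0.224% in EV against 29.9% in WT and 33.0% in HEAA, and H3K4me1 15.5%, 4.15% and 4.36%. H3K27ac covered 6.39%, 1.27% and 1.29% in the first library and 1.30%, 0% and 0% in the second. Every UTX-line library was below both EV libraries, by little for the first libraries against the second EV library. At chr15:93766283-94514534, with 26 members over 748 kb, H3K27me3 covered 20.6%, 42.0% and 43.3%, and H3K4me1 8.58%, 5.28% and 6.27%. Its H3K27ac covered 2.70%, 1.20% and 1.76%, then 2.18%, 0.676% and 0.868%, again with each UTX-line library below both EV libraries. The fourth, chr16:65694684-65849989, had H3K4me1 over 11.7%, 5.81% and 5.19%, with H3K27ac at 1.03%, 0.467% and 0.875% in the first libraries and none in the second.

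**Figure D2:**
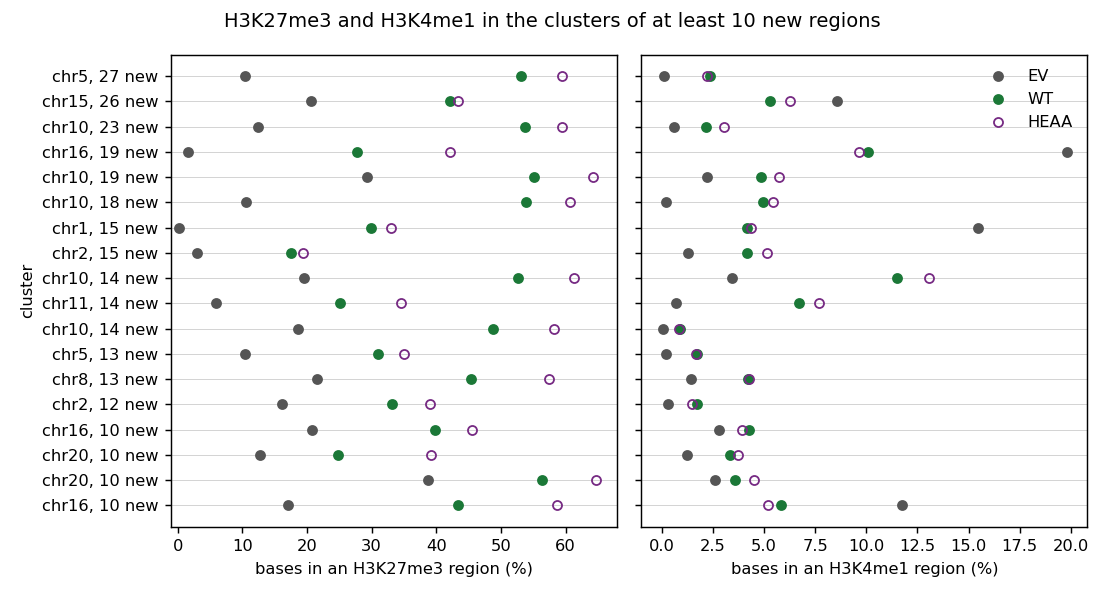
Bases inside an H3K27me3 region (left) and an H3K4me1 region (right), as percentages, in the 18 clusters of at least 10 new regions, ordered by number of members; 1 list per line, so no error is shown. WT and HEAA lie right of EV for H3K27me3 in all 18 clusters, and left of EV for H3K4me1 in 4, on chromosomes 15, 16 and 1.

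Over all 89 clusters of at least 5 members, H3K4me1 was listed in 87. It covered more in WT and HEAA than in EV in 66 of them (75.9%) and less in 19 (21.8%). Among windows of 200 kb over the genome that held H3K4me1, 63.7% covered more in both and 16.9% less in both, the H3K4me1 lists of WT and HEAA being longer than that of EV. Both shares were higher among the clusters, which had a median span of 177 kb, than among the windows.

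H3K27ac was listed in 53 of the 89 clusters. In 7 (13.2%) all 4 WT and HEAA libraries covered fewer bases than both EV libraries, against 3.93% of the 200 kb windows, and in 4 (7.55%) all 4 covered more, against 2.27%. In those 7 clusters H3K4me1 also covered less in both UTX lines, a combination found in 2.29% of the windows. They lay on chromosome 1 (4 clusters), 15, 2 and 21. Compared within a library number, WT and HEAA lay below EV for both numbers in 12 clusters (22.6%; windows 12.4%) and above in 6 (11.3%; windows 5.81%). Movement in either direction had a larger share among these clusters than among the windows. The differences between those shares were not tested, and the windows are not matched to the clusters in length or content.

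Most new regions lay within 10 kb of H3K27me3 that was already listed in EV. The EV list held 231899 regions over 239 Mb, and no such share is given for positions over the genome. Whether new regions lay closer to EV H3K27me3 than the genome at large was not tested. The median distance to the nearest EV region was 1340 bp (95% interval 1243 to 1426 bp, quartiles 495 and 3906 bp). It was within 1 kb for 1243 members (43.1%) and within 10 kb for 2563 (89.0%, 87.8 to 90.1%). An EV region lay within 5 kb on both sides of 1259 members (43.7%), on 1 side of 1015 (35.2%) and on neither side of 607 (21.1%). The gaps between EV regions that held a member had a median length of 9859 bp, and a member filled a median of 13.6% of its gap. The 453 WT regions of at least 1000 bp absent from both EV and HEAA, which share the condition of no EV overlap, had a median distance of 1762 bp (1472 to 2035 bp) and 86.1% (82.6 to 89.0%) lay within 10 kb. New regions were thus the closer of these 2 classes by median, with overlapping intervals at 10 kb.

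**Figure D3:**
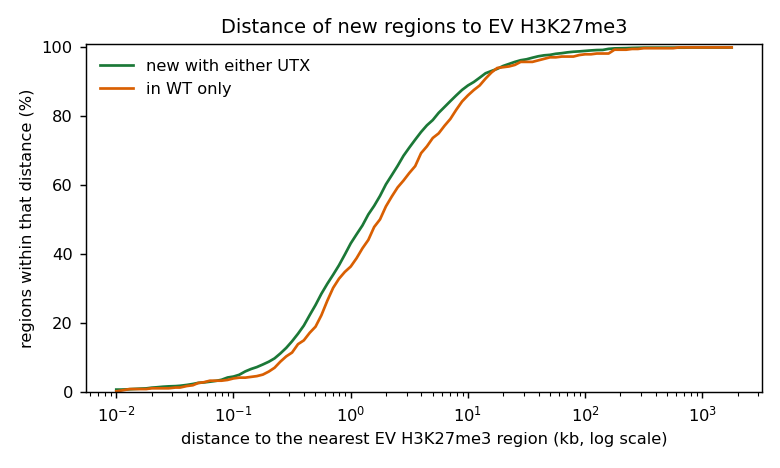
Cumulative percentage of new regions (2881) and of regions in WT only (453) against distance to the nearest EV H3K27me3 region in kb on a log scale. The curve of new regions reaches 43.1% at 1 kb and 89.0% at 10 kb, and that of WT-only regions 36.4% and 86.1%.

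In the 10 kb on either side of a new region, H3K27me3 covered a mean of 18.4% of bases in EV against 24.7% in WT and 34.2% in HEAA. Around kept regions it covered 41.5%, 32.5% and 44.8%. The surroundings of new regions thus carried less H3K27me3 than those of kept regions in all 3 lines. WT lay above EV around new regions and below EV around kept regions. H3K4me1 covered 2.39% of these flanks in EV against 2.87% in WT and 3.04% in HEAA. H3K27ac covered 0.493%, 0.328% and 0.414% in the first libraries of EV, WT and HEAA, and 0.300%, 0.115% and 0.0967% in the second.

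**Figure D4:**
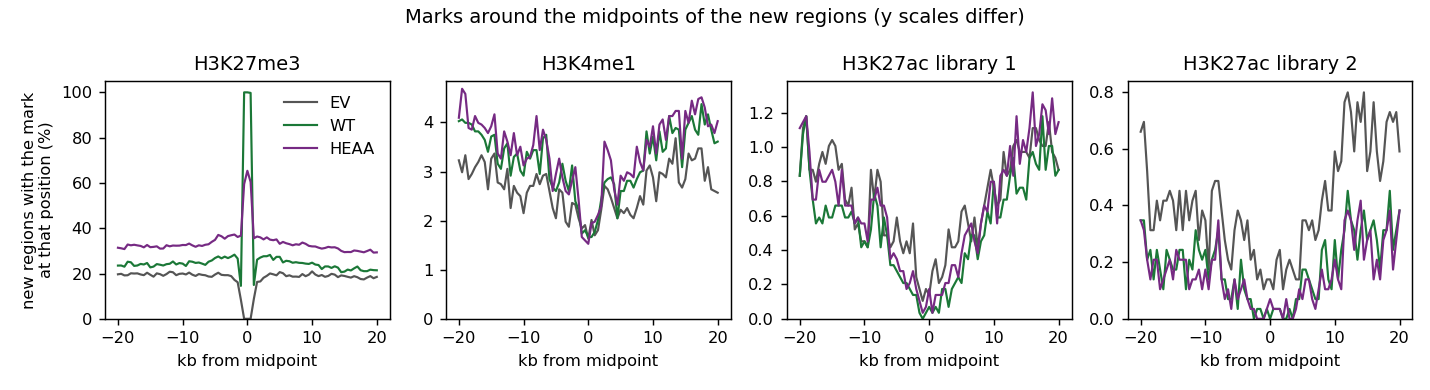
Percentage of the 2881 new regions whose position at a given distance from the region's midpoint (kb) lay in a region of H3K27me3, H3K4me1 or H3K27ac, for EV, WT and HEAA; y scales differ between panels, and no error is shown. EV H3K27me3 falls to 0 at the midpoint by the rule and covers a mean of 18.4% of the 10 kb flanks, and H3K4me1 and H3K27ac dip toward the midpoint in all lines.

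A minority lay far from any EV H3K27me3. There were 62 members (2.15%, 1.68 to 2.75%) beyond 50 kb, on 18 chromosomes. The farthest were chr18:37661626-37662998 at 1686 kb and chr4:32239089-32240116 at 781 kb. Of the 62, 21 stood in 5 groups of at least 3. In the group chr1:240693826-240714926, the proximal part of the chromosome 1 cluster described above, 5 members lay in 21.1 kb without EV H3K27me3, and H3K27me3 covered 62.2% of the stretch in WT and 64.5% in HEAA. The stretch itself held no H3K4me1 or H3K27ac in any line. Its 100 kb flanks held H3K4me1 over 17.9% of bases in EV against 7.87% in WT and 8.31% in HEAA. They held H3K27ac over 8.02%, 2.18% and 1.78% in the first libraries. The distal flank lies inside the chromosome 1 cluster, so these values partly repeat those of the cluster.

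The group chr11:92126497-92235083 had 5 members spread over 109 kb between blocks of EV acetylation. H3K27ac covered 10.3% of that stretch in the first EV library, 3.61% in WT and 3.51% in HEAA, and 1.55%, 0% and 0% in the second. Its H3K4me1 covered 15.8%, 13.5% and 13.0%. The other 3 groups were chr1:170239639-170257700 with 5 members, chr7:85264731-85309237 with 3 and chr10:9962725-9983170 with 3. None of these 3 held H3K27ac in any library, and H3K4me1 covered at most 4.36% of bases, in the EV line of the chromosome 10 group.

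Few new regions had carried H3K27ac in EV. Of 2881, 13 (0.451%) overlapped H3K27ac in the first EV library and 11 (0.382%) in the second. The numbers were 3 (0.104%) in each WT library, and 6 (0.208%) and 3 (0.104%) in the HEAA libraries. Each of the 4 libraries with UTX thus lay below both EV libraries. The mean was 0.417% ± 0.0491 (SD, n = 2) in EV and 0.130% ± 0.0521 (SD, n = 4) in the UTX lines, a difference of -0.286 percentage points. An exact two-sided permutation test over libraries gave p = 0.0667, the smallest value that 2 against 4 libraries allow, so the design cannot reach 0.05. Within the first libraries the difference was -0.295 points and within the second -0.278.

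At kept regions the same H3K27ac shares were 0.0777% and 0.127% in EV, 0.115% and 0.0330% in WT, and 0.188% and 0.0188% in HEAA. The groups overlapped there, with a difference of -0.0135 points (exact permutation p = 0.933), and the sign differed between the first libraries (0.0742) and the second (-0.101). The difference between new and kept regions was lower in each of the 4 UTX-line libraries than in both EV libraries, with a mean of 0.0413 points against 0.314 points in EV (difference -0.273, exact permutation p = 0.0667). WT-only regions, which lack EV H3K27me3 by definition as new regions do, differed by -0.386 points (exact permutation p = 0.133), with 3 of 4 libraries below both EV libraries. New regions were chosen for the absence of EV H3K27me3 and kept regions for its presence. Both choices bear on EV values, and their part in these differences was not tested. In all, 32 such tests were computed on the same libraries, and the Benjamini-Hochberg adjusted value of each p of 0.0667 was 0.356.

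The same order held in the immediate surroundings. Within 1 kb of a new region, H3K27ac was listed for 29 (1.01%) and 25 (0.868%) members in EV, 7 (0.243%) and 6 (0.208%) in WT, and 18 (0.625%) and 5 (0.174%) in HEAA. All 4 UTX-line libraries again lay below both EV libraries, with a difference of -0.625 points (exact permutation p = 0.0667). Within 10 kb the shares were 7.60% and 5.07% in EV, 7.08% and 2.71% in WT, and 8.61% and 2.36% in HEAA. At that distance the groups overlapped, the difference was -1.15 points (exact permutation p = 0.6), and its sign differed between the first (0.243) and second (-2.53) libraries. Within 5 kb the difference was -1.29 points, with 3 of 4 UTX-line libraries below both EV libraries (exact permutation p = 0.2). Set against kept regions, all 4 UTX-line libraries were below both EV libraries at 1 kb (difference -0.617), 5 kb (-1.26) and 10 kb (-1.17), each with an exact permutation p of 0.0667. Kept regions carry EV H3K27me3 by definition and new regions lack it. The rule thus bears on this contrast, and its part was not tested. The H3K27ac lists covered 88.1, 96.0 and 111 Mb in the first libraries of EV, WT and HEAA and 71.7, 55.3 and 48.3 Mb in the second, so the second libraries of the UTX lines were also the shortest lists.

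**Figure D5:**
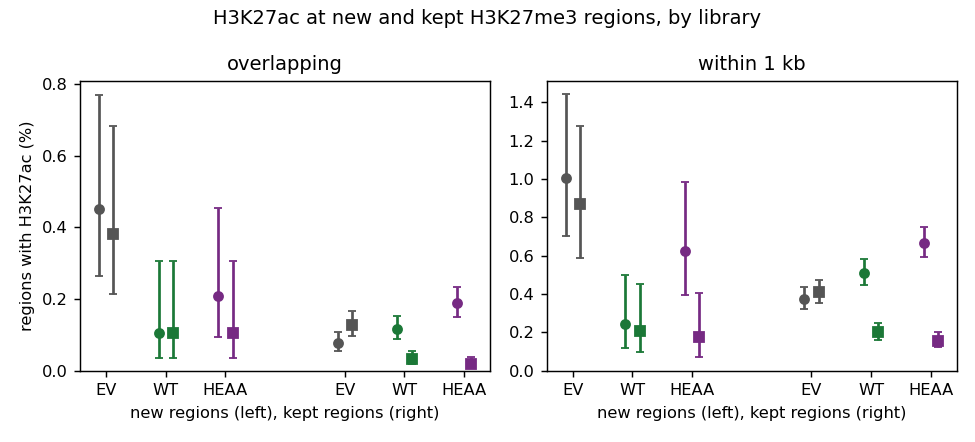
Percentage of new (2881) and kept (42458) regions that overlap H3K27ac (left panel) or have it within 1 kb (right panel), with 95% Wilson intervals for counting error; circles are library 1 and squares library 2 of each line. At new regions both EV libraries (0.451% and 0.382%) stand above the 4 UTX-line libraries, and at kept regions the libraries overlap.

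WT and HEAA did not differ detectably. The H3K27ac share at new regions was 0.104% in WT and 0.156% ± 0.0736 (SD, n = 2) in HEAA, a difference of -0.0521 points (exact permutation p = 1, smallest possible 0.333). With 2 libraries each, a difference of this size lies within the spread between the HEAA libraries.

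By pattern, 20 new regions (0.694%; 0.213% of all WT regions of at least 1000 bp) had EV H3K27ac in at least 1 library. Of these, 16 (0.555%; 0.133%) had none in the 4 UTX-line libraries. The opposite pattern, H3K27ac in a WT or HEAA library and in no EV library, was found at 2 (0.0694%; 0.159%), both in the first HEAA library alone: chr2:24232443-24233650 and chr9:35616828-35617961. The share with the first pattern was above that over all wide WT regions and the share with the opposite pattern below it, on counts of 16 and 2, and neither difference was tested. Among the 453 WT-only regions, which lack EV H3K27me3 too, 0.662% had EV H3K27ac in at least 1 library. In 2 of them (0.442%, 0.121 to 1.60%) none was listed in the UTX lines, and 0 had the opposite pattern. A share above that of all wide WT regions was thus not particular to new regions. The remaining 2859 (99.2%; 99.6%) overlapped no H3K27ac in any library. Near absence of H3K27ac was thus shared with wide WT H3K27me3 regions in general.

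Only 4 members (0.139%; 0.0344%) had H3K27ac in both EV libraries, and 2 of them had it in no UTX-line library. At chr3:154797602-154801193, 3592 bp wide, the EV H3K27ac regions were 328 and 227 bp long, with a fold of 4.25 and 2.92. H3K4me1 covered 79.1% of this region in EV against 46.0% in WT and 30.0% in HEAA, and the nearest EV H3K27me3 was 41.3 kb away. At chr6:6005749-6006786, 1038 bp wide, the EV H3K27ac regions were 544 and 1888 bp long, with a fold of 3.21 and 5.29. H3K4me1 covered none of it in EV against 62.2% in WT and 42.2% in HEAA. H3K27ac did remain close to this region, 1.45 and 0.541 kb away in WT and 0.022 and 8.66 kb away in HEAA.

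The other 2 members with H3K27ac in both EV libraries kept it in all 4 UTX-line libraries over a smaller part of the region. At chr21:33783870-33785722 it covered 55.4% and 72.6% of the bases in EV, 15.7% and 23.7% in WT, and 41.8% and 43.2% in HEAA. At chr18:28621134-28622633 it covered 100% in both EV libraries, 53.0% and 36.2% in WT, and 98.5% and 74.1% in HEAA. At both regions each of the 4 UTX-line values was below both EV values, and WT was below HEAA in both libraries. These 2 were named after their values were seen. H3K27ac and H3K27me3 listed over the same bases come from separate libraries of many cells, and whether they share a histone or a cell was not tested.

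H3K4me1 at new regions changed little in number. It overlapped 147 members (5.10%, 4.36 to 5.97%; 6.37% of all WT regions of at least 1000 bp) in EV against 146 (5.07%) in WT and 163 (5.66%) in HEAA. At kept regions the shares were 6.54% in EV against 8.18% in WT and 8.71% in HEAA. The 42 new regions (1.46%; 1.34%) with H3K4me1 in EV and in neither UTX line were matched in number by 42 (1.46%; 1.94%) with H3K4me1 in both UTX lines and not in EV. In 76 (2.64%; 3.74%) it was present in all 3 lines, and 2648 (91.9%; 88.0%) had none. Little H3K4me1 was thus common to new regions and to wide WT H3K27me3 regions in general. Of the 20 members acetylated in EV, 18 (0.625% of members; 0.193%) also carried H3K4me1 in EV, as did 90 of the 99 such regions among all WT regions of at least 1000 bp.

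The surroundings of new regions listed H3K4me1 more often in the UTX lines than in EV. Within 10 kb, members that overlapped it included, it was listed for 33.1% (31.4 to 34.9%) of members in EV against 46.7% (44.9 to 48.5%) in WT and 48.0% (46.1 to 49.8%) in HEAA. For kept regions the shares were 43.5%, 53.3% and 54.8%, so both classes were higher in the UTX lines. The H3K4me1 lists covered 157, 179 and 186 Mb, in the same order. Per base, H3K4me1 covered a mean of 1.91% of the new regions themselves in EV, 1.72% in WT and 1.88% in HEAA, each below its share of the 10 kb flanks given above.

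The share of members with an activating mark in EV was higher far from EV H3K27me3. EV H3K27ac, in at least 1 library, was found at 4 of 1243 members within 1 kb of EV H3K27me3 (0.322%, 0.125 to 0.825%), 10 of 1320 between 1 and 10 kb (0.758%, 0.412 to 1.39%), 3 of 256 between 10 and 50 kb (1.17%, 0.399 to 3.39%) and 3 of 62 beyond 50 kb (4.84%, 1.66 to 13.3%). EV H3K4me1 was found at 3.70%, 5.61%, 7.81% and 11.3% of the same classes. In the H3K27ac series the interval of the last class is separate from those of the first 2 and overlaps that of the third, and the last class rests on 3 regions. Beyond 50 kb the UTX lines carried as much: 3 of the 62 (4.84%) had H3K27ac in at least 1 WT or HEAA library, and 14.5% had H3K4me1 in WT and 12.9% in HEAA. Among the 3 members beyond 50 kb with EV H3K27ac, a pair was not independent. These were chr8:142235507-142237884 and chr8:142239072-142243178, which both overlap a single 1794 bp H3K27ac region of the second EV library. Only the first of the pair also had H3K27ac in a WT or HEAA library.

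UTX and MLL4 were not listed inside the new regions. None of the 2881 held a UTX or MLL4 peak of any line, which gives a Wilson upper bound of 0.133% for each list. The lists of EV, WT and HEAA were short, with 31, 2566 and 2855 peaks for UTX and 133, 898 and 1125 for MLL4. This limits the overlap that any class of regions could show. By the sample titles, these lists came from MNase chromatin and those of the histone marks from sonicated chromatin. Among the 42458 kept regions, 3 (0.00707%) held a UTX peak in WT, 3 in HEAA and none an MLL4 peak, so the absence was not particular to new regions. Nearby, a UTX peak lay within 10 kb of 33 members in WT (1.15%, 0.817 to 1.60%; 0.587% of all WT regions of at least 1000 bp) and of 27 in HEAA (0.937%, 0.645 to 1.36%; 0.556%). In EV, whose UTX list had 31 peaks, it was 1 member. For kept regions the shares were 0.546% in WT and 0.525% in HEAA, and for the 453 WT-only regions 1.10% (0.472 to 2.56%) and 1.32% (0.608 to 2.86%). UTX peaks near new regions were thus few, with shares above those of kept regions and within the intervals of WT-only regions, and there is no replicate check.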

How the data were processed

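The data were lists of enriched regions from ChIP-seq of 3 UMUC1 lines. MACS2 and the build hg19 (GRCh37) are named in the submitters' processing notes. For the version, the aligner and the read filters, nothing is given in the sources used here. H3K27me3, H3K4me1 and H3K27ac lists have the layout of broad regions, and UTX and MLL4 lists that of narrow peaks. The deposited fold is a linear ratio over background, and the authors also deposited −log10 p and −log10 q per region. The deposited score was not used. Fold and q are the authors' values and only describe, rank or filter regions within a list. Lists were called per sample as far as their names show, and depth is unknown.

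Intervals were compared in Python 3.11.15 with NumPy 2.4.6, pandas 2.3.3 and SciPy 1.17.1, with an overlap of at least 1 bp, and drawn with matplotlib 3.10.9. The code was tested on simulated data. Positions are hg19, counted from 1. Clusters join members across gaps of up to 100 kb. Shares carry 95% Wilson intervals for counting error, and medians an order-statistic interval. Two-sided exact permutation tests over libraries compared the H3K27ac shares, 2 EV against 4, and 2 WT against 2 HEAA. No label ties the numbered libraries to separate cultures, so p-values reflect the spread of these libraries alone, and that spread may be technical.

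The members and lists were chosen with earlier results of these data known. Regions named are the 10 with the best mean rank of fold in WT and HEAA, the 10 widest, the 5 richest bins of 1 Mb, and members acetylated in both EV libraries and in no other. Other named regions and clusters were chosen after their values were seen. Genes and sequences are not given, since an hg19 annotation was not used here. Alternatives covered the width limit, HEAA coverage, distance to EV, q limits, list length, mark coverage, left-out libraries and a replicate block.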

Additional observations from a re-analysis of the deposited data

How the results depend on the processing

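In 105 values under other settings, 58 were counted as the same as the main value and 47 as moved. Of the 58, 16 and 14 were H3K27ac differences, judged by sign and a p of 0.05. Their exact permutation p could not reach 0.05, so only the sign could change, and none took the opposite sign. The number of new regions was judged by a ratio, and other values by the interval of the main value, whatever their sign. Some H3K4me1 differences changed sign. HEAA minus EV went from 0.555 points to -0.481 with 2000 bp, and WT minus EV from -0.0347 to 0.180 with the q limit on WT and HEAA. The H3K27ac difference between UTX lines and EV was below 0 under all 16 of its alternatives, from -1.08 to -0.130 points, with exact permutation p from 0.0667 to 0.2, and no alternative could reach 0.05.

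With a width limit of 500 bp there were 14237 new regions (12.9% of WT regions of that width), 25.3% followed by a new region and 86.8% with one within 100 kb. Their median distance to EV was 1091 bp, 90.6% lay within 10 kb, 2.78% had EV H3K4me1 and 9.10% were on chromosome 10, while chromosome 2 held most. With 2000 bp there were 208 (1.41%), with 18.3% and 41.8% for the same neighbour shares, 2894 bp, 80.3%, 12.02% and 23.1%. There the H3K4me1 share differed from EV by -1.44 points in WT and -0.481 in HEAA.

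With at least 50% of the WT region covered in HEAA, 1907 remained (4.10%), 16.4% were followed by a new region, 54.2% had one within 100 kb and 13.8% were on chromosome 10. Without an EV region within 1 kb, 1639 remained (3.52%), with 23.2%, 56.3%, a median distance of 3297 bp, 80.6% within 10 kb, 6.16% with EV H3K4me1 and 12.9% on chromosome 10. A −log10 q of at least 2 for WT and HEAA left 555 (2.33%), with 18.7% and 47.7% for neighbours, 7.57% with EV H3K4me1, 1.80 points more H3K4me1 in HEAA than in EV and 18.4% on chromosome 10. With 3 H3K27me3 lists of 199901 regions each, 7.39% were new and 64.4% had another within 100 kb. Without chromosome 10, chosen after seeing the data, the values were 5.75% new, 19.1% followed by a new region and 58.9% with one within 100 kb. EV H3K4me1 was 3.68% where it had to cover 20% of a region, and 3.99% with a −log10 q of at least 2, where WT differed from EV by -0.868 points and HEAA by -0.278. The number and width of new regions thus follow the thresholds, and the cause of the other shifts was not tested.

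Leaving out 1 library at a time, the H3K27ac difference between UTX lines and EV ranged from -0.321 to -0.252 points, and that between WT and HEAA from -0.104 to 0 points. With the replicate block, in which labels were permuted within a library number, the differences were -0.286 (exact permutation p = 0.111, the smallest of 9 arrangements) and -0.0521 points (p = 1). Deviations of same-numbered libraries over 1 Mb windows correlated at 0.701 to 0.893 between lines, but 2 numbers and the labels do not establish a pairing. Depth is unknown and limits every absence.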
